A study of Mus musculus with 36 samples.

Results

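The 10 genes described here are mitochondrially encoded messenger RNA (mRNA) rows: mt-Nd1, mt-Nd2, mt-Nd4, mt-Nd5 and mt-Nd6 of respiratory complex I, mt-Cytb of complex III, mt-Co1, mt-Co2 and mt-Co3 of complex IV, and mt-Atp6 of complex V. They were chosen by name and matched by gene symbol, and make up 10 of the 55470 gene rows in the 36 libraries. Together they held 32038 of 56873390 counts, or 0.0563% of all counts. The libraries are from mouse cortex (strain C57BL6JL) and hold RNA pulled down with an anti-HA antibody by the RiboTag method, in which Cre tags the cytosolic ribosomal protein Rpl22 with an HA epitope.

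Shank3 mice carried the genotype Shank3(ΔC/+); HA-Rpl22(f/+);Camk2a-Cre(+/-), with 1 mutated copy of the gene for the synaptic scaffold protein Shank3. WT littermates were Shank3(+/+);HA-Rpl22(f/+);Camk2a-Cre(+/-), so both genotypes carried the tag and the Cre driver. Mice were left naive in the home cage or were taken 1 h or 4 h after forced swim stress. Cohort 1 held 3 naive WT, 3 naive Shank3, 6 WT at 1 h and 5 Shank3 at 1 h, and cohort 2 held 4 naive WT, 4 naive Shank3, 5 WT at 4 h and 6 Shank3 at 4 h. All 1 h libraries were in cohort 1 and all 4 h libraries in cohort 2, so each swim group was compared only with the naive mice of its cohort and genotype. Camk2a drives Cre mainly in forebrain excitatory neurons, and the pulldown can also carry RNA that is not bound to the tag. The extract protocol writes the tag allele as HA-Rpl22(f/f), unlike the genotype labels, and the labels give neither age nor sex.

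The mitochondrial genome encodes a small set of core subunits of the respiratory chain and of ATP synthase, while the nucleus encodes all their other subunits. Both of its strands are transcribed into long precursors from which the tRNAs are cut out, which frees the mRNAs and rRNAs between them. Mitochondrial mRNAs are translated inside the organelle by ribosomes that do not contain Rpl22, so their translation is not what the tag reports. In bulk samples, fewer cells of a type and less RNA per cell cannot be told apart.

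The members lie on chromosome M (mm10, GENCODE vM21 annotation), each in a single exon. Of the 10 members, 9 are annotated on the plus strand, in the order mt-Nd1 (2751 to 3707), mt-Nd2 (3914 to 4951), mt-Co1 (5328 to 6872), mt-Co2 (7013 to 7696), mt-Atp6 (7927 to 8607), mt-Co3 (8607 to 9390), mt-Nd4 (10167 to 11544), mt-Nd5 (11742 to 13565) and mt-Cytb (14145 to 15288). mt-Nd6 (13552 to 14070) is the only member annotated on the minus strand. The first 60 bases of 4 members are shown so that the strands can be compared: mt-Nd6, the minus-strand member, its plus-strand neighbour mt-Cytb, and the plus-strand members mt-Co1 and mt-Nd1, which were both called at 4 h. Each is written 5′ to 3′ on the strand of its own mRNA, with the start codon in capitals.
mt-Nd6: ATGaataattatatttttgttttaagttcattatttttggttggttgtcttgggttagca
mt-Cytb: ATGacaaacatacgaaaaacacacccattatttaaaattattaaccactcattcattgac
mt-Co1: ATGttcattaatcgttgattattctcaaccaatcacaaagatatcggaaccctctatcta
mt-Nd1: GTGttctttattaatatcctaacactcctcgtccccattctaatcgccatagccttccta
The strand can be read in the base composition. mt-Nd6 is 28.1% G and 5.97% C over its whole length, mt-Cytb is 12.2% G and 26.9% C, and the 9 plus-strand members range from 8.0% to 16.1% G. mt-Nd5 and mt-Nd6 overlap tail to tail by 14 bases at chrM:13552-13565, shown in capitals on the plus strand with 20 bases on either side, and mt-Co1 shares its last 3 bases with the minus-strand tRNA gene mt-Ts1. The other 7 members overlap no gene on the opposite strand.
mt-Nd5 and mt-Nd6: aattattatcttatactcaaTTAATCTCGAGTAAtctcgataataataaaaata

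Each library held 0.884 to 3.52 M counts (median 1.51 M), and the members held between 169 and 4534 counts in a library. The library kit keeps the strand of the RNA, but the strand setting of the counting is not given in the sources used here. In 1813 pairs formed by a coding row and an antisense row whose exons face each other, the coding rows held only 10.7% to 33.1% of the pair's counts. This percentage, called the pair share below, was 10.8% ± 0.182 (SD, n = 3) and 11.3% ± 0.568 (SD, n = 3) in naive WT and Shank3 of cohort 1, and 14.4% ± 2.09 (SD, n = 6) and 14.0% ± 1.81 (SD, n = 5) at 1 h. In cohort 2 it was 13.2% ± 1.4 (SD, n = 4) and 13.1% ± 1.48 (SD, n = 4) in naive mice, and 23.2% ± 5.31 (SD, n = 5) and 25.5% ± 7.23 (SD, n = 6) at 4 h. Whether the RNA counted on a row came from its own strand or from the opposite strand cannot be told apart from these files. Nuclear rRNA rows took over 10% of the counts in 3 libraries, which were Shank3 naive replicates 6 and 7 and WT 1 h replicate 5. The row of Shank3 itself is counted over the whole gene and has an exon of another gene opposite to it, so it does not check the deletion. It held 5.38 to 18.3 CPM (a row's counts scaled by all counts of the library, in the usual unit) on average in the WT groups and 8.67 to 35.4 in the Shank3 groups.

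The summed level of 8 pyramidal neuron markers ran from 856 to 6607 CPM over the 36 libraries, against 2.96 to 98.1 for interneuron markers, 17.8 to 242 for astrocyte markers, 35.5 to 557 for oligodendrocyte markers and 0 to 2.06 for endothelial markers, of which Cldn5 and Ly6c1 were at 0. Microglial markers summed to 299 to 698 CPM, most of it on Csf1r, a row with an exon of another gene opposite, while Cx3cr1, C1qa, C1qb, P2ry12 and Tmem119 had under 1 count per library. Most of these sums differed with the swim. They are scaled to total counts, and with that scaling 57.1% of all genes tested rose in WT at 4 h and 63.4% in Shank3. Whether the markers moved more than other genes was not tested. At 4 h, pyramidal markers were at 1543 ± 444 (SD, n = 4) in naive WT and 4094 ± 1480 (SD, n = 5) after the swim, astrocyte markers at 65.8 ± 31.1 and 187 ± 37.8, oligodendrocyte markers at 76.0 and 328, and microglial markers at 599 and 383 CPM. In Shank3 mice the same sums were 1381 and 4616 for pyramidal, 50.9 and 182 for astrocyte, 80.0 and 361 for oligodendrocyte and 524 and 371 for microglial markers. Interneuron markers were at 8.96 in naive WT of cohort 2 and 27.7 at 4 h, and at 14.6 and 44.2 in Shank3. At 1 h, astrocyte markers were at 24.1 and 74.8 CPM in WT and at 35.0 and 76.5 in Shank3, without overlap in either genotype. Pyramidal markers were at 984 and 1800 in WT and at 1249 and 1673 in Shank3, also without overlap. Microglial markers were lower without overlap, at 675 and 528 in WT and at 651 and 525 in Shank3. Interneuron and oligodendrocyte sums overlapped in both genotypes. Of all genes tested, 22.6% in WT and 28.8% in Shank3 were higher without overlap, and 5.0% and 5.56% were lower. The part of these cells in the results below was not tested.

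Counts were spread unevenly over the members. mt-Cytb, the core subunit of complex III, held 10106 counts or 31.5% of the members' total, and mt-Co1, the catalytic subunit of complex IV, held 7579 (23.7%). mt-Nd6 held 5593 (17.5%), and the complex I members mt-Nd4, mt-Nd1, mt-Nd5 and mt-Nd2 held 2355, 2330, 2038 and 1676. mt-Co2, mt-Co3 and mt-Atp6 held only 148, 106 and 107 counts and were detected in 20, 16 and 22 of the 36 libraries, while each of the other 7 members had counts in all 36. The mitochondrial mRNA rows that are no members, mt-Nd3, mt-Nd4l and mt-Atp8, held 4, 6 and 2 counts. The mitochondrial rRNA rows mt-Rnr1 and mt-Rnr2 held 981 and 893 counts in libraries made with an mRNA kit. Among the 22 tRNA rows, the 8 rows on the minus strand held 247 counts and the 14 rows on the plus strand held 3.

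The order of the members per length also set mt-Nd6 apart in naive mice. In CPM per kilobase of gene, mt-Nd6 was at 198 ± 35.9 (SD, n = 14) and was the highest member in 14 of 14 naive libraries. mt-Cytb followed at 84.3 ± 55.7 and mt-Co1 at 21.1 ± 16.9, and both of these steps were larger than the larger of the neighbours' SDs. From mt-Co1 through mt-Nd2 (18.5), mt-Nd5 (13.2) and mt-Nd1 (11.7) to mt-Nd4 (8.41), neighbours differed by less than the spread over libraries. mt-Atp6, mt-Co2 and mt-Co3 were at 0.566, 0.512 and 0.189 CPM per kilobase and could not be ordered among themselves. At 1 h mt-Nd6 was at 140 ± 41.5 (SD, n = 11) and highest in 9 of 11 libraries, and its distance to mt-Cytb, at 106 ± 50.1, was within the SD. At 4 h mt-Cytb was at 236 ± 44.5 (SD, n = 11), mt-Nd6 at 213 ± 48.9 and mt-Co1 at 163 ± 82.8, and these members were the highest in 5, 3 and 3 of the 11 libraries.

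**Figure D1:**
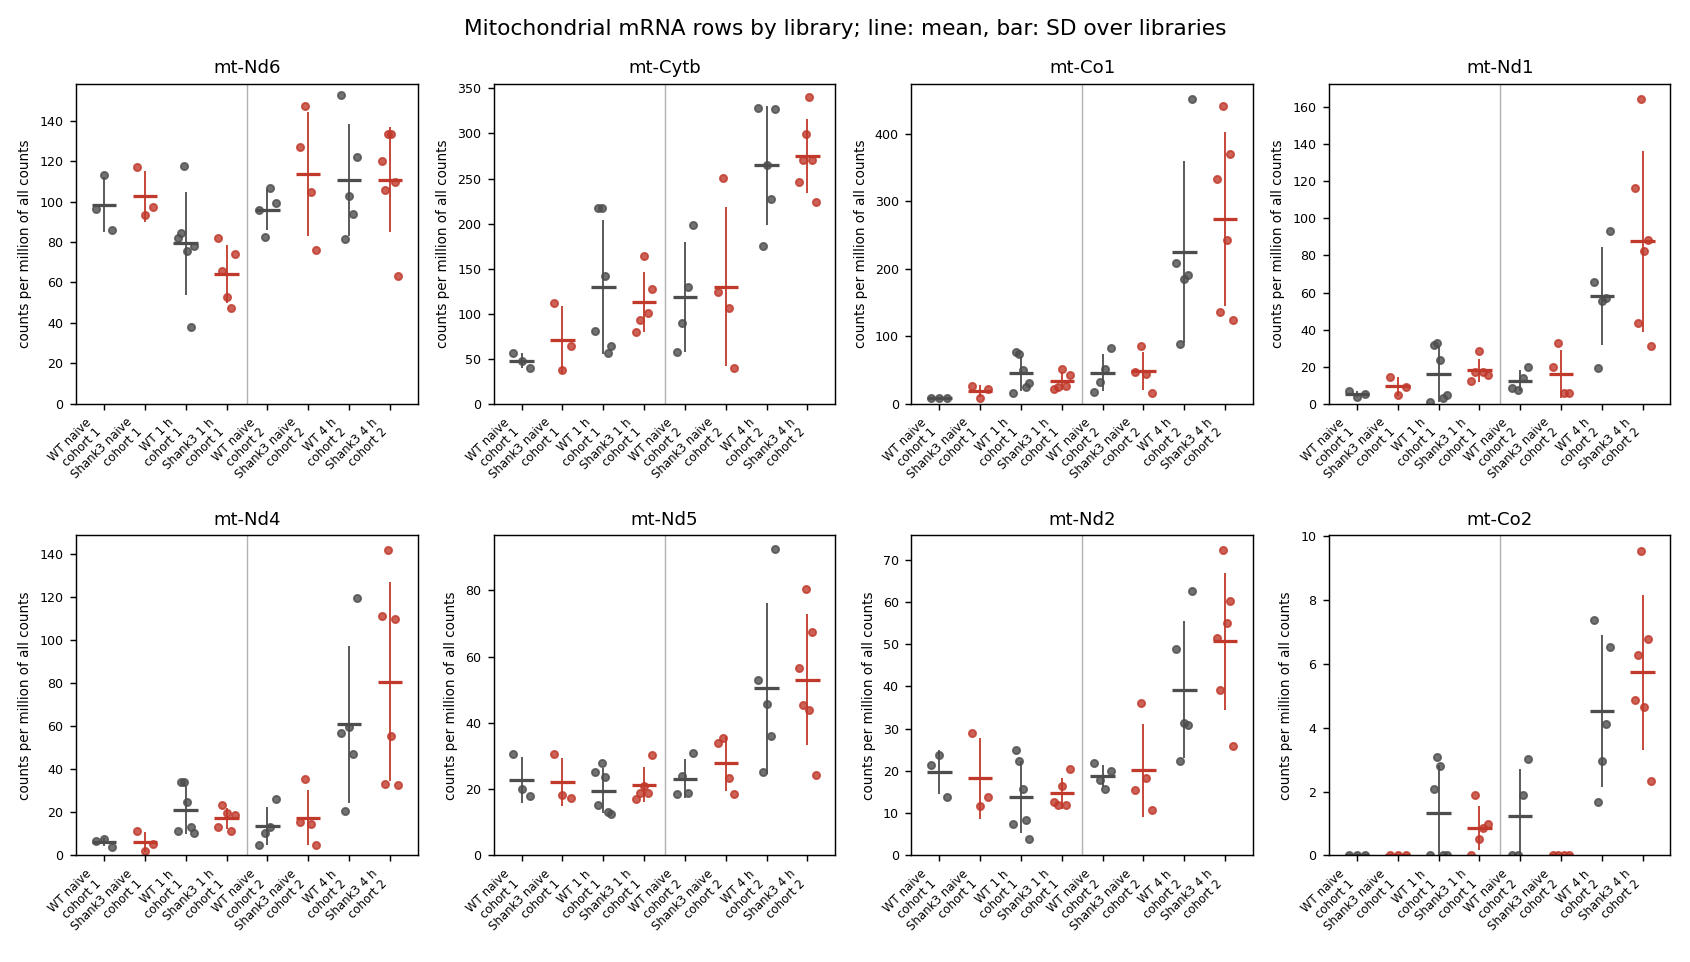
CPM (vertical axis, from 0) for 8 members in each library, by genotype, treatment and cohort, with WT in grey and Shank3 in red, a line at the mean and a bar of 1 SD. mt-Co1 reaches 453 CPM at 4 h, where naive libraries lie at 7.90 to 85.2, while mt-Nd6 runs from 63.3 to 153 at 4 h and from 75.9 to 147 in naive libraries.

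The swim response at 4 h was compared with naive mice of cohort 2. In CPM, the 10 members summed to 330 ± 114 (SD, n = 4) in naive WT and 818 ± 316 (SD, n = 5) in WT at 4 h, and to 374 ± 189 (SD, n = 4) and 947 ± 300 (SD, n = 6) in Shank3. The 9 plus-strand members made up this difference, with 234 ± 109 and 708 ± 298 in WT and 260 ± 160 and 836 ± 279 in Shank3. mt-Nd6, the minus-strand member, was at 96.0 ± 10.2 and 111 ± 27.7 in WT and at 114 ± 30.5 and 111 ± 26.0 in Shank3, and its groups overlapped in both genotypes.

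mt-Co1, which forms the oxygen-reducing core of complex IV, was at 17.6, 32.4, 51.8 and 82.2 CPM in the 4 naive WT libraries and at 208, 87.8, 185, 191 and 453 in the 5 WT libraries at 4 h. Every 4 h library lay above every naive one, and the means differed 4.89-fold. In Shank3 mice mt-Co1 was at 46.4, 85.2, 43.6 and 16.3 in naive libraries, and at 4 h it ran from 123 to 441 with a median of 287 (n = 6), again without overlap and 5.73-fold higher on average. Over all genes tested, 43.1% were higher without overlap in WT and 43.6% in Shank3. In edgeR's quasi-likelihood test across 11341 genes with TMM scaling, a scaling in which most genes are taken as unchanged, mt-Co1 rose by 1.53 ± 0.35 log2 units in WT (SE, Benjamini-Hochberg adjusted p = 0.00042) and by 1.57 ± 0.34 in Shank3 (adjusted p = 0.00017).

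Among the complex I members on the plus strand, mt-Nd1 and mt-Nd4, both subunits of the proton-pumping membrane arm, rose in both genotypes, whereas the rows of mt-Nd2 and mt-Nd5, which encode further subunits of the same arm, did not pass the test. With scaling to total counts mt-Nd2 and mt-Nd5 were called too, at 1.07 (edgeR adjusted p = 0.0134) and 1.16 (adjusted p = 0.00294) in WT and at 1.31 (adjusted p = 0.00177) and 0.95 (adjusted p = 0.0075) in Shank3, and the difference between members was not tested. mt-Nd1 was at 8.39, 7.31, 13.9 and 20.0 CPM in naive WT and at 65.6, 19.0, 55.4, 57.1 and 93.5 at 4 h, with 1 library at 4 h inside the naive range. Its log2 change was 1.45 ± 0.46 (SE, edgeR adjusted p = 0.00823) in WT and 1.46 ± 0.43 (adjusted p = 0.00348) in Shank3. In Shank3 mice mt-Nd1 was at 15.9 ± 12.9 (SD, n = 4) and 87.7 ± 48.9 (SD, n = 6) CPM. mt-Nd4 was at 13.7 ± 8.92 and 60.9 ± 36.4 in WT and at 17.6 ± 12.8 and 80.8 ± 46.2 in Shank3, and its log2 change was 1.41 ± 0.40 (edgeR adjusted p = 0.00323) and 1.21 ± 0.37 (adjusted p = 0.00478). mt-Nd2 was at 18.9 ± 2.62 and 39.2 ± 16.2 CPM in WT without overlap, but after TMM scaling its log2 value was 0.27 (adjusted p = 0.445) in WT and 0.36 (adjusted p = 0.263) in Shank3. mt-Nd5 had log2 values of 0.36 (edgeR adjusted p = 0.263) and -0.05 (adjusted p = 0.876). In Shank3 the calls of mt-Nd1 and mt-Nd4 ended without the 3 libraries rich in rRNA, at 0.95 (edgeR adjusted p = 0.107) and 0.85 (adjusted p = 0.119), where mt-Co1 and mt-Nd6 kept theirs. That fit drops Shank3 naive replicates 6 and 7, so only replicates 4 and 5 stand as naive Shank3 libraries of cohort 2. Replicate 5 was the highest naive Shank3 library of this cohort, at 32.6 CPM for mt-Nd1 and 35.4 for mt-Nd4. In a fit of the rows with no gene opposite, together with the members, mt-Nd1 in WT was at 1.04 (edgeR adjusted p = 0.0517) and mt-Nd4 in Shank3 at 0.75 (adjusted p = 0.0538).

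mt-Cytb, the complex III member, was at 119 ± 60.8 (SD, n = 4) and 265 ± 65.9 (SD, n = 5) CPM in WT and at 130 ± 88.1 (SD, n = 4) and 275 ± 40.7 (SD, n = 6) in Shank3. The groups overlapped in both genotypes. After TMM scaling its log2 values were 0.44 ± 0.30 (SE, edgeR adjusted p = 0.198) and 0.25 ± 0.28 (adjusted p = 0.450), so it did not pass the test. With scaling to total counts mt-Cytb was called, at 1.16 (edgeR adjusted p = 0.00782) in WT and 1.08 (adjusted p = 0.00892) in Shank3. Under that scaling 57.1% and 63.4% of all genes rose.

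mt-Nd6 fell in the same test, by 0.57 ± 0.22 on the log2 scale in WT (SE, edgeR adjusted p = 0.0242) and by 1.00 ± 0.21 in Shank3 (adjusted p = 9.12e-05). Its CPM did not differ in this way: it was at 95.6, 82.5, 107 and 99.2 in naive WT and at 153, 81.6, 103, 94.1 and 122 at 4 h. The direction therefore depends on the scaling. With libraries scaled to their total counts alone, the log2 value of mt-Nd6 was 0.20 (edgeR adjusted p = 0.436) in WT and -0.03 (adjusted p = 0.921) in Shank3. The same scaling moved the median of all genes from 0.23 to 0.98 in WT and from 0.22 to 1.17 in Shank3, so relative to the median gene mt-Nd6 was lower under both. The call in WT also ended without WT naive replicate 4 (edgeR adjusted p = 0.0841) or WT 4 h replicate 4 (adjusted p = 0.0511), and with no filter on low counts (-0.46, adjusted p = 0.127).

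Of the 7 members that passed the filter on low counts on naive libraries alone, 3 rose (mt-Co1, mt-Nd1 and mt-Nd4) and 1 fell (mt-Nd6) in each genotype at 4 h. Of all genes tested, 29.0% rose and 26.9% fell in WT (56.0% in either direction), and 32.7% and 29.4% in Shank3 (62.1% in either direction). Read against these shares, the number of members called is no result about the members as a group. mt-Co2, mt-Co3 and mt-Atp6 passed the filter only with the swim libraries included and are left out of this count. With scaling to total counts, 6 of the 7 rose in each genotype and none fell, where 57.1% and 63.4% of all genes rose and 12.2% and 10.3% fell.

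mt-Co2, which carries the copper site that takes electrons from cytochrome c, mt-Co3, the third mitochondrial subunit of complex IV, and mt-Atp6, a subunit of the proton channel of ATP synthase, were the least counted members. mt-Co2 had 6 counts in the 4 naive WT libraries and 51 in the 5 WT libraries at 4 h, 3.73-fold more per total count (exact 95% interval 1.60 to 10.6, for counting error only). In Shank3 mice it had 0 counts in naive libraries of cohort 2 and 71 at 4 h, at least 10.4-fold higher when the naive group is set to 3 counts, which is 0.575 CPM over the group. mt-Co3 had 0 counts in naive WT and 40 at 4 h, at least 5.85-fold higher by the same floor, and 3 and 58 counts in Shank3, a ratio of 8.47 (2.76 to 42.3). mt-Atp6 had 2 and 27 counts in WT, a ratio of 5.92 (1.49 to 51.4), and 4 and 64 in Shank3, a ratio of 7.01 (2.61 to 26.5). These rows entered the test across all genes only through the swim libraries, where they are high, so no p-value is given for their swim response. The bounds set by the floor take in no counting error of the 4 h counts and change with the depth of the naive libraries. Single libraries weigh on the ratios. WT 4 h replicate 5 held 25 of the 40 counts of mt-Co3 and 17 of the 27 counts of mt-Atp6, and without it the mt-Co3 bound and the mt-Atp6 ratio were both 3.25. Without WT naive replicate 7, mt-Co2 and mt-Atp6 in WT had ratios of 5.88 and 9.34, and without WT naive replicate 6 the bound of mt-Co3 was 3.89. In Shank3 mice, leaving out naive replicate 5 gave 6.78 for the bound of mt-Co2, 16.6 for mt-Co3 and 18.3 for mt-Atp6.

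These members have near-identical copies in the nuclear genome. On the minus strand of chromosome 1, Gm28661 matches mt-Co2 over 681 bases at 100% identity, Gm10925 matches mt-Atp6 over 678 bases at 100%, and Gm28437 matches mt-Co3 over 783 bases at 100%. These copies held 361, 163 and 115 counts, more than the mitochondrial rows themselves. Gm29216 matches 483 bases of mt-Co1 at 99.8% and held 170 counts, and Gm28439 matches 876 bases of mt-Nd4 at 100% and held 123. No copy of at least 100 bases at 95% identity was found among the annotated transcripts for mt-Nd1, mt-Nd6 or mt-Cytb. How the counting divided such reads is not given in the sources used here, so the levels of mt-Co2, mt-Co3 and mt-Atp6 are uncertain, and those of mt-Co1 and mt-Nd4 to a lesser extent. At 4 h the copies were higher as well: Gm28661 2.76-fold (exact interval 1.65 to 4.91) in WT and 2.78-fold (1.74 to 4.63) in Shank3, and Gm29216 8.0-fold (2.99 to 30.1) in WT and 7.78-fold (2.91 to 29.3) in Shank3. Without Shank3 naive replicate 5 the value of Gm28661 in Shank3 was 9.52. That of Gm29216 was 4.23 in WT without WT 4 h replicate 5, 12.6 without WT naive replicate 7, and 12.5 in Shank3 without Shank3 naive replicate 6.

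At 1 h, 1 member rose and 3 fell in WT, where 16.9% of all genes tested rose and 17.3% fell (34.2% in either direction). mt-Co1 was at 9.05, 8.87 and 7.90 CPM in naive WT of cohort 1, and at 1 h it ran from 15.8 to 76.7 with a median of 39.7 (n = 6), without overlap. Of all genes tested, 22.6% were higher without overlap in this comparison. mt-Co1 rose by 1.75 ± 0.49 on the log2 scale (SE, edgeR adjusted p = 0.00754). mt-Cytb was at 47.8 ± 8.54 (SD, n = 3) and 130 ± 74.3 (SD, n = 6) CPM. The groups did not overlap, but the lowest 1 h library and the highest naive one were both at 56.6, and the log2 value of 0.80 ± 0.34 missed the threshold (edgeR adjusted p = 0.0643).

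mt-Nd6 fell by 0.90 ± 0.23 on the log2 scale in WT at 1 h (SE, edgeR adjusted p = 0.00405). It was at 96.2, 113 and 85.9 CPM in naive WT and ran from 38.1 to 118 at 1 h, with overlap. mt-Nd2 fell by 1.12 ± 0.35 (SE, edgeR adjusted p = 0.0143), and the call ended without WT naive replicate 2 (-0.94, adjusted p = 0.102), which left 2 members called. mt-Nd5 fell by 0.80 ± 0.32 (edgeR adjusted p = 0.0493), at the threshold, and lost the call in most fits that left out 1 library (adjusted p up to 0.258, without WT naive replicate 1). With scaling to total counts, which moved the median of all genes from 0.24 to 0.85, 3 members rose and none fell, against 36.7% and 4.45% of all genes, and mt-Nd2, mt-Nd5 and mt-Nd6 did not pass (log2 values of -0.48, -0.21 and -0.31). mt-Nd1 and mt-Nd4 had log2 values of 1.08 (edgeR adjusted p = 0.205) and 1.18 (adjusted p = 0.0862).

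In Shank3 mice at 1 h mt-Nd6 was the only member called, against 12.2% of all genes in either direction, with 4.99% higher and 7.25% lower. It was at 117, 93.3 and 97.3 CPM in naive libraries and at 82.0, 65.8, 53.0, 47.3 and 73.8 at 1 h, so that every swim library lay below every naive one. A lower level without overlap was found for 5.56% of all genes tested. mt-Nd6 fell by 1.13 ± 0.23 on the log2 scale (SE, edgeR adjusted p = 0.00496), and under total count scaling its log2 value was -0.67 (edgeR adjusted p = 0.0617) and no member was called, where 14.7% of all genes rose and 0.908% fell. mt-Co1 was at 18.7 ± 8.89 (SD, n = 3) and 33.4 ± 13.1 (SD, n = 5) CPM and had a log2 value of 0.38 ± 0.43 (SE, edgeR adjusted p = 0.563). mt-Nd2 had a log2 value of -0.76 ± 0.35 (edgeR adjusted p = 0.128).

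**Figure D2:**
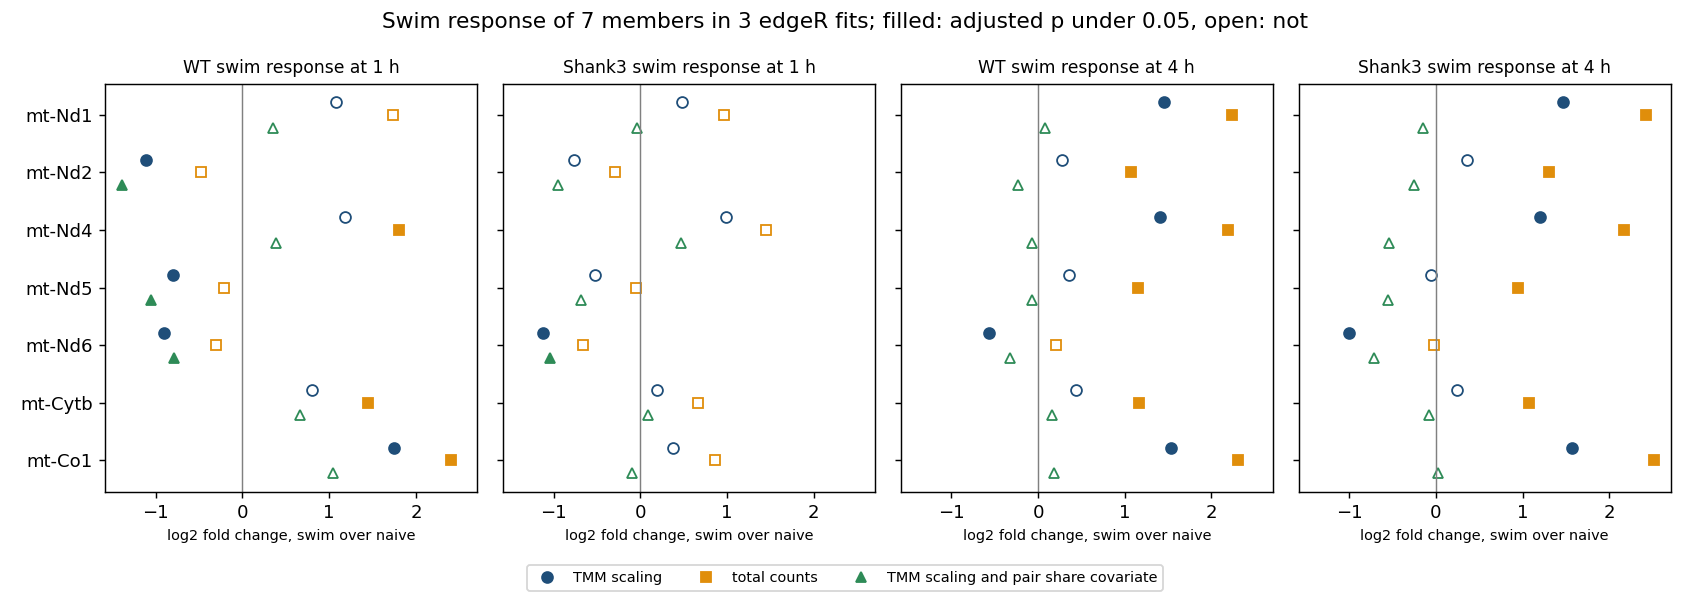
Log2 fold change of swim over naive (horizontal axis) for 7 members in the 4 swim comparisons, from edgeR fits with TMM scaling (circles), with total counts (squares) and with TMM scaling and the pair share as a covariate (triangles), filled where the adjusted p is under 0.05. Total count scaling moves these members to the right, and with the covariate no member is filled at 4 h.

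The share of each member within the counts of the 13 mitochondrial mRNA rows does not depend on how libraries are scaled. However, mt-Nd6 is the only minus-strand row of the 13, and the pair share also differed between swim and naive groups. What the swim and the pair share each contribute to these shares cannot be told apart. mt-Nd6 took a smaller share after the swim in each comparison, with no overlap between swim and naive libraries. In Shank3 at 1 h, however, the highest swim library and the lowest naive one were both at 34.4%. In WT of cohort 1 its share was 47.3% ± 4.58 (SD, n = 3) without swim and 26.6% ± 8.65 (SD, n = 6) with it (two-sided exact permutation p = 0.0119), and in Shank3 it was 43.3% ± 9.27 (SD, n = 3) and 23.4% ± 7.27 (SD, n = 5) (exact p = 0.0179). In cohort 2 it was 31.2% ± 9.03 (SD, n = 4) and 14.4% ± 3.52 (SD, n = 5) in WT at 4 h (exact p = 0.0079), and 33.5% ± 8.53 (SD, n = 4) and 12.1% ± 2.22 (SD, n = 6) in Shank3 (exact p = 0.0048). The extremes were Shank3 naive replicate 2, at 52.9% of 240 counts (95% Wilson interval 46.6 to 59.1), and WT 4 h replicate 5, at 9.45% of 4540 counts (8.63 to 10.3).

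mt-Co1 took a larger share after the swim, with the naive mean given first: 4.16% and 13.5% in WT at 1 h (exact permutation p = 0.0119), 7.30% and 11.5% in Shank3 at 1 h with overlap (exact p = 0.0536), 13% and 26.0% in WT at 4 h (exact p = 0.0159), and 12.3% and 27.7% in Shank3 at 4 h (exact p = 0.0048). mt-Cytb differed by time. Its share was 22.9% and 38.1% in WT at 1 h (exact p = 0.0119) and 27.4% and 39.2% in Shank3 at 1 h (exact p = 0.0357), but 34.3% and 33.9% in WT (exact p = 0.897) and 32.2% and 31.2% in Shank3 (exact p = 0.9) at 4 h. Of 80 tests over 10 members and 8 comparisons, 20 had an exact p under 0.05, all in swim comparisons, and after Benjamini-Hochberg adjustment 0 of 80 passed, with a smallest adjusted p of 0.0952. The group sizes limit these tests, since 0.0119 is the smallest p that 6 against 3 libraries allow.

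**Figure D3:**
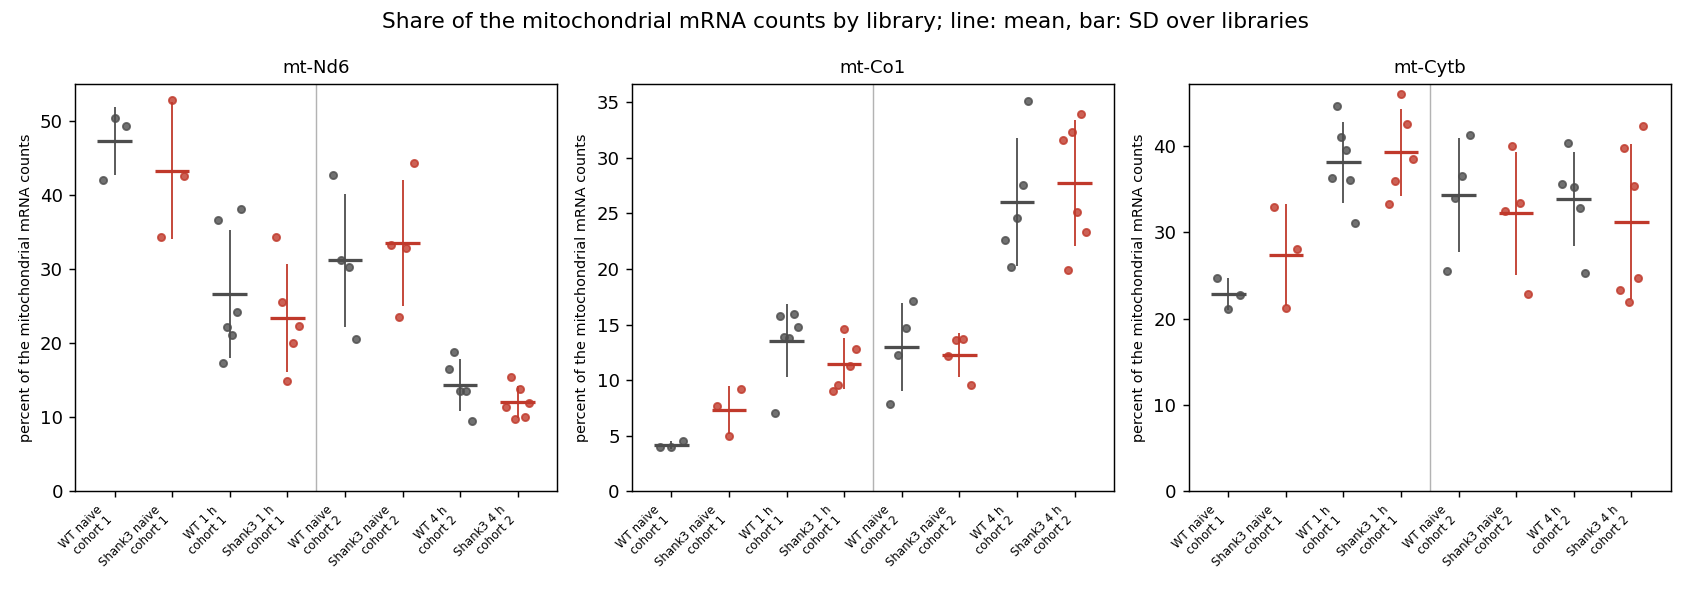
Percent of the counts of the 13 mitochondrial mRNA rows on mt-Nd6, mt-Co1 and mt-Cytb (vertical axes) in each library, by group, with WT in grey and Shank3 in red, a line at the mean and a bar of 1 SD. The mt-Nd6 share is at 20.6% to 52.9% in naive libraries and at 9.45% to 18.8% at 4 h, and the mt-Co1 share is 26.0% and 27.7% on average at 4 h.

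Genotype was compared within naive mice and at each time after the swim. None of the 10 members passed in any of these comparisons or in the interaction of genotype and swim by edgeR's quasi-likelihood test, DESeq2 or limma voom. Among all genes tested, 0.00882% passed without swim, 0.0% after 1 h, 0.00882% after 4 h and 0.0% in both interactions. At an unadjusted p under 0.05 there were 0 members without swim, 0 after 1 h and 1 after 4 h, which was mt-Atp6 (1.03 ± 0.48 log2 units, SE, edgeR adjusted p = 0.99987), among 539, 205 and 228 genes.

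In naive mice, with both cohorts weighted equally, the log2 values of Shank3 over WT were 0.63 ± 0.48 (SE) for mt-Nd1, 0.58 ± 0.34 for mt-Co1, 0.33 ± 0.25 for mt-Cytb and 0.16 ± 0.18 for mt-Nd6. At 1 h they were -0.40 ± 0.32 for mt-Co1, -0.29 ± 0.20 for mt-Nd6 and -0.17 ± 0.27 for mt-Cytb. At 4 h they were 0.52 ± 0.34 for mt-Nd1, 0.33 ± 0.29 for mt-Nd4, 0.23 ± 0.28 for mt-Co1, 0.04 ± 0.26 for mt-Cytb and -0.05 ± 0.19 for mt-Nd6. These values lie within about 2 SE of 0, and their size leaves differences of that order undetectable with these libraries. For the interaction, the response in Shank3 minus that in WT was -1.37 ± 0.66 for mt-Co1 at 1 h (unadjusted p = 0.0431 in a fit across all genes, edgeR) and 0.03 ± 0.47 at 4 h, and -0.43 ± 0.30 for mt-Nd6 at 4 h. At 4 h mt-Co2 was the only member with an unadjusted p under 0.05 in the interaction, in a comparison with Shank3 naive libraries that are all at 0. Under the same limit there were 468 genes in the interaction at 1 h and 302 at 4 h. The shares of the mitochondrial mRNA counts gave 0 of 40 genotype tests with an exact permutation p under 0.05. The 10 tests in naive mice of cohort 1, with 3 libraries against 3, could not go below 0.1, which mt-Co1 reached there, at 7.30% in Shank3 and 4.16% in WT without overlap.

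The naive mice of the cohorts also differed. mt-Co1 was at 8.61 ± 0.617 (SD, n = 3) CPM in naive WT of cohort 1 and at 46.0 ± 27.9 (SD, n = 4) in cohort 2, and at 18.7 ± 8.89 (SD, n = 3) and 47.9 ± 28.3 (SD, n = 4) in Shank3. It was 1.54 ± 0.34 log2 units higher in cohort 2 (SE, edgeR adjusted p = 0.00685). No other member was called, where 10.7% of all genes were (5.78% higher and 4.88% lower). mt-Cytb was at 0.73 ± 0.25 (edgeR adjusted p = 0.0529) and was called in 12 of the 36 fits that left out 1 library, with the lowest adjusted p of 0.0230 without Shank3 naive replicate 1. This cohort difference of mt-Co1 stands beside a swim response of 1.53 in WT at 4 h, and the mean pair share was higher in naive mice of cohort 2 as well. With the pair share in the model it was 1.12 (edgeR adjusted p = 0.00564) and mt-Co1 was again the only member called, with 10.1% of all genes.

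The members were next set against the pair share across the 36 libraries. With the 8 groups in the model, mt-Nd4 had a slope of 1.76 ± 0.21 log2 units per doubling of the pair share (SE, edgeR adjusted p = 1.82e-10), mt-Nd1 a slope of 1.66 ± 0.33 (adjusted p = 6.35e-05) and mt-Co1 a slope of 1.62 ± 0.22 (adjusted p = 5.09e-08). The slopes of mt-Co3 and mt-Atp6 were 2.58 and 2.71, on few counts, and that of mt-Nd2 was 0.63 ± 0.25 (edgeR adjusted p = 0.027). Those of mt-Nd5 (0.54), mt-Co2 (0.59), mt-Cytb (0.35) and mt-Nd6 (-0.31 ± 0.20, edgeR adjusted p = 0.181) did not pass. A slope past the threshold was found for 62.9% of all genes tested, with 32.4% rising and 30.5% falling, and the median slope was 0.48 for rows with no gene opposite, -0.08 for coding rows with an exon opposite and -1.45 for antisense rows with an exon opposite.

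With the pair share in the model no member was called at 4 h in WT, where 7.69% of all genes were, or in Shank3, where 0.529% were. mt-Co1 was then at 0.18 (edgeR adjusted p = 0.750) in WT and 0.02 (adjusted p = 0.985) in Shank3, and mt-Nd6 at -0.33 (adjusted p = 0.469) and -0.71 (adjusted p = 0.193). The pair share differed between swim and naive groups, so this fit also removes any swim effect that runs along with it, and the effects of the swim and of the pair share at 4 h cannot be told apart. At 1 h mt-Nd6 still fell, by 0.79 in WT (edgeR adjusted p = 0.00932) and by 1.04 in Shank3 (adjusted p = 0.00101), as did mt-Nd2 (-1.39, adjusted p = 0.00418) and mt-Nd5 (-1.05, adjusted p = 0.0234) in WT. mt-Co1 in WT at 1 h lost its call in this fit (1.05, edgeR adjusted p = 0.0566). Of all genes, 21.7% were called in it in WT at 1 h and 12.0% in Shank3.

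**Figure D4:**
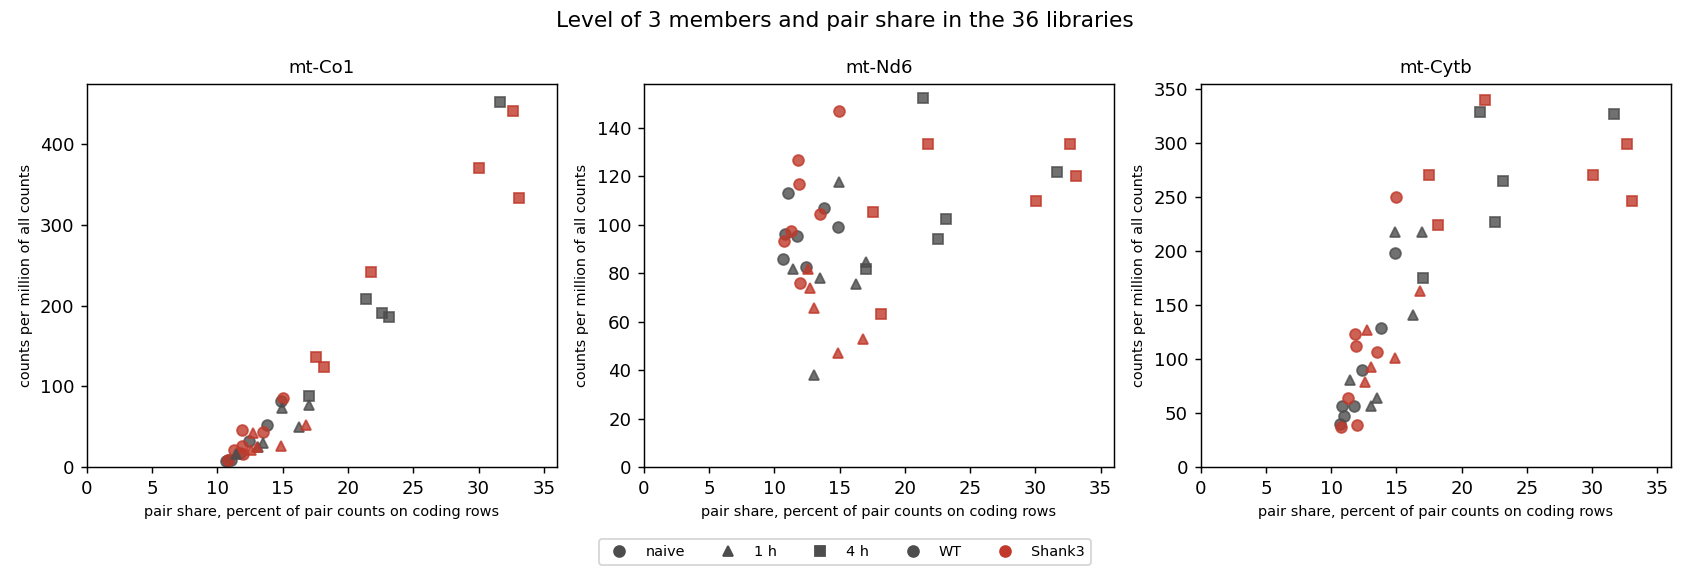
CPM of mt-Co1, mt-Nd6 and mt-Cytb (vertical axes) against the pair share in percent (horizontal axis) in the 36 libraries, with WT in grey, Shank3 in red, circles for naive, triangles for 1 h and squares for 4 h. mt-Co1 is at 7.90 to 9.05 in the naive WT libraries of cohort 1, the group with the lowest mean pair share, and at 333 to 453 in the 4 libraries with a pair share of at least 30.0%, while mt-Nd6 shows no such order.

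Members also differed in which of them moved together. With TMM scaling, over the 36 libraries the log2 CPM of mt-Co1 had a Pearson r of 0.91 with mt-Nd4, 0.84 with mt-Nd1 and 0.82 with mt-Cytb, and mt-Nd2 had an r of 0.72 with mt-Nd5. mt-Nd6 had an r of -0.41 with mt-Co1 and -0.44 with mt-Nd4, but 0.46 with mt-Nd5 and 0.33 with mt-Nd2. The sign depends on the scaling: with log2 CPM of total counts, an alternative chosen after seeing the data, mt-Nd6 had an r of 0.41 with mt-Co1, 0.38 with mt-Nd4, 0.63 with mt-Nd5 and 0.64 with mt-Nd2. These are descriptions over libraries that share groups, depth and scaling. Among 9482 nuclear genes, those whose TMM-scaled log2 CPM was most like the mean of the members over the 36 libraries were Psap (r = 0.90), a precursor of lysosomal activator proteins, Ankrd34a (0.89), Trak1 (0.89), an adaptor for the transport of mitochondria along microtubules, Eif3f (0.89), a translation initiation factor subunit, and Ids (0.89), a lysosomal sulfatase. None of these has a gene on the opposite strand, but the share of such rows among the candidates was not counted. The mean includes mt-Co2, mt-Co3 and mt-Atp6, which are near 0 in naive libraries. How unusual these r values are was not tested.

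The mitochondrial rRNAs are annotated on the same strand as the plus-strand members. mt-Rnr1, the small-subunit rRNA, passed the filter only with the swim libraries included, so no p-value is given for its swim response. It had 29 counts in naive WT of cohort 2 and 401 at 4 h, with up to 241 in a library. In Shank3 it had 27 and 430 counts. mt-Rnr2, the large-subunit rRNA, rose at 4 h in WT by 1.39 ± 0.45 on the log2 scale (SE, edgeR adjusted p = 0.00906) and was at 0.61 ± 0.41 in Shank3 (adjusted p = 0.188). The tRNA row with the most counts, mt-Ts1 on the minus strand, was lower: it had 14 counts in naive WT of cohort 2 and 4 at 4 h, a ratio of CPM of 0.13 (exact 95% interval 0.030 to 0.40), and 27 and 12 in Shank3, a ratio of 0.19 (0.090 to 0.40). Without WT 4 h replicate 3 the ratio in WT was 0.077. mt-Tp, the minus-strand row next in counts, had 6 and 17 counts in WT (1.24, interval 0.47 to 3.85) and 11 and 28 in Shank3 (1.12, interval 0.54 to 2.48, and 2.01 without Shank3 naive replicate 5).

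The nuclear genes for the same complexes were set beside the members. Of 77 tested nuclear subunit genes, 52 rose and 3 fell in WT at 4 h, with a median of 1.08 log2 units against 0.23 for all genes, and 58 rose and 3 fell in Shank3, with a median of 1.16 against 0.22. Of all genes tested, 29.0% rose and 26.9% fell in WT, and 32.7% rose and 29.4% fell in Shank3. All genes include antisense rows with an exon opposite, whose median slope on the pair share was -1.45. For rows with no gene opposite it was 0.48, and the pair share was higher at 4 h. How many of the 77 have a gene opposite was not counted, and no list was tested as a set. For complex I, which holds 5 of the members, 23 of 36 nuclear genes rose in WT and 24 in Shank3, and 2 fell in each. Among them, Ndufv1, which binds NADH, rose by 1.37 ± 0.27 (SE, edgeR adjusted p = 0.0001) in WT and 1.63 ± 0.27 (adjusted p = 7.01e-06) in Shank3. Complex II has no mitochondrial subunit, and 3 of its 4 genes rose in each genotype, among them the iron-sulfur subunit Sdhb (2.01 and 1.86).

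For complex III, 6 of 10 genes rose in WT and 8 in Shank3, with Uqcrc1, a core subunit, at 1.20 and 1.14. For complex IV 10 of 11 rose in each genotype, with Cox6a1 at 1.97 in WT and 2.57 in Shank3. For complex V 10 of 16 rose and 1 fell in WT, with Atp5c1 of the central stalk at 1.20, and 13 rose and 1 fell in Shank3, with Atp5e at 1.65. At 1 h, 32 of the 77 rose and 2 fell in WT, where 16.9% of all genes rose and 17.3% fell. In Shank3 4 rose and 1 fell, against 4.99% and 7.25% of all genes. In the interaction of genotype and swim at 1 h, 0.0% of all genes passed. Cox6c of complex IV was at 1.88 (edgeR adjusted p = 0.00019) in WT and 1.79 (adjusted p = 0.00019) in Shank3, and cytochrome c, Cycs, at 1.15 and 1.10. With the pair share in the model, 0 of the 77 passed in either direction at 4 h, where 7.69% of all genes did in WT and 0.529% in Shank3.

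Genes that serve mitochondrial gene expression were also counted at 4 h. Among all genes tested, 29.0% rose and 26.9% fell in WT, and 32.7% rose and 29.4% fell in Shank3. Set beside these shares, the counts below are a description, and no list was tested as a set. Of 29 tested genes for transcription, RNA handling and translation in mitochondria, 8 rose and 11 fell in WT at 4 h and 10 rose and 10 fell in Shank3. Twnk, the mitochondrial DNA helicase, fell by 1.69 ± 0.27 (SE, edgeR adjusted p = 9.94e-06) and 1.58 ± 0.26 (adjusted p = 5.97e-06), and its row has an exon of another gene opposite. Lrpprc, which binds and stabilises mitochondrial mRNAs, rose by 1.85 ± 0.35 in WT (edgeR adjusted p = 4.61e-05), and Mtif3, an initiation factor of mitochondrial translation, fell by 1.34 and 1.41, with an exon opposite. Of 70 mitochondrial ribosomal protein genes, 18 rose and 10 fell in WT and 30 rose and 8 fell in Shank3, with Mrpl46 (exon opposite) at -1.78 and -1.75. Among 9 regulators of mitochondrial biogenesis, 2 rose and 2 fell in WT and 1 rose and 3 fell in Shank3: Gabpa (exon opposite) fell by 1.52 and 1.43, and Ppargc1a rose by 1.10 ± 0.32 in WT (edgeR adjusted p = 0.00395). Lrpprc and Ppargc1a are given for WT only, and no difference between the genotypes is meant by this. In the interaction of genotype and swim at 4 h, 0.0% of all genes passed.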

How the data were processed

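Ribosome-bound RNA was sequenced in 36 libraries of mouse cortex. The deposited files hold raw counts per gene, whole numbers without normalization, per the labels and the values. The submitters' processing notes name the build mm10 and, in no given order, Salmon 1.4, DESeq2, HISAT2 2.2.0, FastQC, Trimmomatic 0.39 and StringTie 2.1.3. Which tool made the counts and with which strand setting is not given in the sources used here. Positions, strands and sequences come from GENCODE vM21 (mm10), and nuclear copies from a BLAST search of its transcripts (at least 95% identity over 100 bases). The members and the gene lists were chosen with earlier results of these data known.

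The count table was analysed in edgeR 4.0.16 under R 4.3.3 (quasi-likelihood test, robust, TMM scaling, filterByExpr), with 8 groups of genotype, treatment and cohort, 28 residual degrees of freedom and 11341 genes. P-values were adjusted by Benjamini-Hochberg over all genes, with a threshold of 0.05. An SE was taken as the size of the log2 value divided by the root of F, which understates it for low rows. The labels do not tie libraries to animals, and p-values therefore reflect only how these libraries vary, which may be technical. DESeq2 1.42.0 and limma 3.58.1 were alternatives, beside other scalings, filters, a replicate block, an additive cohort term, the pair share as a covariate, a fit of rows with no opposite gene, and leaving out each library. CPM are of all counts of the library. Total counts of 0.884 to 3.52 M limit the precision of low rows. Ratios of summed counts carry exact binomial intervals and shares of 1 library carry Wilson intervals. Both are at 95% and cover counting error only. Shares were compared by exact permutation of libraries, with p the share of regroupings whose absolute mean difference was at least that observed, adjusted over 80 tests (scipy 1.17.1).

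The genes named are the members, the other mitochondrial mRNA and rRNA rows, up to 3 genes of each nuclear list with the smallest p in a comparison, and the 5 nuclear genes most like the mean of the members by Pearson r of log2 CPM (mean at least 1), without provisional names and rows sharing sequence with the members. mt-Ts1, mt-Tp and the nuclear copies were named after their values were seen. On counts simulated for WT at 4 h over 10269 genes, the fit called 5.08% of genes changed 1.5-fold, 24.6% of those changed 2-fold, 95.4% of those changed 4-fold and 0.01% of unchanged genes. The simulation gave every gene the same spread (a coefficient of variation of 24.2%) and left most genes unchanged. These rates therefore need not hold for the members, whose spread can be larger.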

Additional observations from a re-analysis of the deposited data

Results flagged for a closer look

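Among 72 groups of libraries checked, 1 had a library far from the others: mt-Co3 in WT at 1 h, where replicate 3 was at 0.774 CPM and the other 5 libraries were at 0. This value rests on 1 count. Chance alone flags about 1 group in 20.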

How the results depend on the processing

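Of the 100 log2 fold changes of the members, those that kept their side of the threshold, with no called value turning sign, numbered 100 with TMM factors computed without mitochondrial rows and with limma voom, 99 with DESeq2 and with RLE scaling, 98 with upper quartile scaling, 94 with an additive cohort term and 91 without the low-count filter. Scaling to total counts kept 82. It turned mt-Nd6 in WT at 4 h to 0.20 and mt-Nd5 in Shank3 at 4 h to 0.95, and the members called became 0 in Shank3 at 1 h, 8 in WT at 4 h, 9 in Shank3 at 4 h and 2 in the naive cohort difference. The pair share as a covariate kept 89. In WT at 4 h it turned mt-Nd4 to -0.066, and in Shank3 at 4 h it turned mt-Nd4 to -0.54 and mt-Nd1 to -0.15, and 0 members were called at 4 h in either genotype. The fit of rows with no opposite gene called 3 members in WT and 3 in Shank3 at 4 h, of the 7 members it held. An additive cohort term called 3 members in Shank3 at 1 h. Without the 3 libraries rich in rRNA, an alternative chosen after seeing the data, 3 members were called in Shank3 at 4 h and 2 in the naive cohort difference. For that difference, upper quartile scaling and DESeq2 called 2 members and the fit without the filter called 3. Causes of these changes were not tested.

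Counts of members called in this section include mt-Co2, mt-Co3 and mt-Atp6, which passed the filter only with the swim libraries included. Without them 4 were called at 4 h in each genotype. Leaving out 1 library gave 2 to 4 members called in WT at 1 h, 1 in Shank3 at 1 h, 4 to 5 in WT at 4 h, 4 to 7 in Shank3 at 4 h (7 without Shank3 4 h replicate 2) and 1 to 2 in the cohort difference. It gave 0 in the genotype and interaction comparisons and 0 of 80 shares. With a replicate block, 4 members were called in WT at 1 h, 1 in Shank3 at 1 h, 4 in WT at 4 h, 5 in Shank3 at 4 h and 0 in the cohort difference. The block ended the calls of mt-Nd1 in WT at 4 h (0.92, edgeR adjusted p = 0.120), mt-Nd5 in WT at 1 h (-0.73, adjusted p = 0.0556) and mt-Co1 between cohorts (1.52, adjusted p = 0.103), and mt-Nd4 in WT at 1 h was called (1.30, adjusted p = 0.0475). Same-numbered libraries did not deviate together in every pair (r from -0.25 to 0.73), so the numbers do not pair them. Depth limits mt-Co2, mt-Co3 and mt-Atp6, which had at most 25 counts in any library, and leaves 1.5-fold differences mostly undetected in the simulation.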
